A study of Mus musculus with 4 samples.

Results

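ATF4 targets and amino acid transporters were followed in EGFP+ donor blood progenitors recovered from the marrow of transplanted mice. The genes are Atf4, Atf5, Ddit3, Trib3, Asns, Sesn2, Slc7a5, Slc3a2, Slc7a11 and Slc1a5, taken by symbol from the deposited tables. All 10 were found among 23284 gene symbols. Expression is in FPKM, the number of sequenced fragments scaled to transcript length and library size. Of the 10 genes, 8 reached 1 FPKM in at least 2 of the 4 libraries and were tested, as were 11496 genes in all. Atf5 and Slc7a11 stayed below 1 FPKM in every library and are described without a test.

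Donor mice carry EGFP under the ubiquitous CAG promoter. Their LSK marrow cells (Lin-, Sca1+, c-Kit+), a fraction rich in stem cells and early progenitors, were transplanted. Wild-type recipients were given 100000 such cells. Control recipients had no treatment, and 5-FU recipients had received 200 mg/kg of 5-fluorouracil, a drug that kills dividing cells, 2 days earlier. EGFP+ cells were sorted from each recipient 24 h after the transplant, with 2 libraries per group. Both groups thus received the same kind of donor cell and differ in the state of the host marrow. No age or strain background of the mice is stated in the labels.

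ATF4 is the transcription factor of the integrated stress response. When amino acids run short, heme is lacking or unfolded protein accumulates, kinases phosphorylate eIF2alpha, general translation slows, and Atf4 mRNA is translated more. ATF4 protein then raises genes for amino acid synthesis and import, and also genes such as Ddit3 and Trib3 that limit the response or favour cell death. Because ATF4 is controlled largely through translation, its mRNA level is not a measure of its protein, and protein was not measured here. Dividing blood progenitors depend on amino acid import for protein synthesis.

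ATF4 and its C/EBP partners bind a composite element, and the letters TGATGNAA of that element were searched on both strands of RefSeq promoter windows (GRCm38.p6, 250 bases before to 50 after a start). Windows were present for 8 of the 10 genes, with none for Slc7a5 and Slc1a5. The letters occurred in 3 of these 8 genes (37.5%), against 1219 of all 27025 genes with a window (4.51%). Several of the 10 are textbook ATF4 targets, so this count is a description and not independent evidence. The 3 stretches are shown because they belong to 1 gene that rose (Asns), 1 that varied within groups (Trib3) and 1 that was barely detected (Slc7a11). Capitals mark the matched letters, and each run is 5′ to 3′ on the gene's own minus strand.
Asns, chr6:7693210-7693272: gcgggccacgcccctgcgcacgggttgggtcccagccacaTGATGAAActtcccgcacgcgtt
Slc7a11, chr3:50443614-50443719: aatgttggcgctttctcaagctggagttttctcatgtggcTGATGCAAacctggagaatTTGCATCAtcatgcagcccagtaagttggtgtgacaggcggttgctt
Trib3, chr2:152344028-152344057: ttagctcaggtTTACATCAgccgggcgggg
In Asns the match begins 23 bases before the start. In Slc7a11 there are 2 matches, 1 on each strand, beginning 66 and 47 bases before the start of 1 of its annotated transcripts. The Trib3 match lies on the opposite strand and begins at base 15 of the transcript. A match of letters is not a measured binding site.

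Markers of other cell types were detected beside those of progenitors, although the sort for EGFP should remove cells of the wild-type host. Progenitor markers were present in every library, with summed FPKM of 11 markers of 766.3 to 825.6 in control and 699.03 to 889.2 in 5-FU recipients, and none of them was at 0. Of these 11, 1 rose, 0 fell and 10 did not pass (limma). The 1 was Ly6a, the Sca1 gene, with 18.7 and 17.0 FPKM in controls against 32.5 and 54.0 (log2 fold change 1.19, adjusted p = 0.032). The 12 macrophage markers summed to 20722 and 23931 in controls and 16531 and 8482 in 5-FU recipients 1 and 2, and none was at 0. Erythroid markers (8 matched) summed to 1283 and 1792 against 76.1 and 125.8, and granulocyte markers (9 matched) to 11713 and 9377 against 3350 and 3193. S100a8 and S100a9 made up most of the granulocyte sum in each library (5662 and 3342 FPKM in control recipient 1). Of the 9 granulocyte markers 5 fell, 3 did not pass and 1, Ctsg, rose (log2 fold change 1.58, adjusted p = 0.018, limma). Alas2, a heme synthesis gene of red cell precursors, was at 0 in 5-FU recipient 1. B lineage and plasma cell markers (10 matched) went from 368.4 and 374.5 to 205.6 and 163.8, with Igll1 at 0 in both 5-FU libraries. Of 7 T and NK cell markers, Cd3e, Cd3d and Gzma were at 0 in at least 1 library, and the sum, nearly all of it Nkg7, was 94.4 to 111.3 in controls and 187.4 to 317.8 in 5-FU recipients. All 12 handling genes, immediate early genes induced by tissue dissociation, had negative fold changes, and their sum was 1623 to 1690 against 607.04 to 789.6. Which cells these transcripts came from, and their part in the results below, was not tested, and fewer cells of a type and less RNA per cell cannot be told apart in such samples.

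Of the 8 tested genes, 3 rose in cells from 5-FU recipients: the leucine transporter gene Slc7a5, the glutamine transporter gene Slc1a5 and the asparagine synthetase gene Asns. None fell. The other 5 did not pass the test. Of these, Ddit3 and the heavy chain gene Slc3a2 had both 5-FU values below both control values, and Atf4, Trib3 and Sesn2 overlapped between the groups. Thus 3 of 8 were called higher at an adjusted p under 0.05, where 8.23% of all tested genes were called higher, and 0 of 8 lower, where 4.67% were (limma). At an unadjusted p under 0.05, 2 were lower, Ddit3 and Slc3a2. The median log2 fold change of the 8 was 0.10, with 4 positive and 4 negative, and the median over all tested genes was -0.01. In 5 of the 8 the groups did not overlap, which was so for 62.2% of all tested genes, so that count is near the background. The counts changed when single libraries were left out, in fits whose spread comes only from the group with 2 libraries left.

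**Figure D1:**
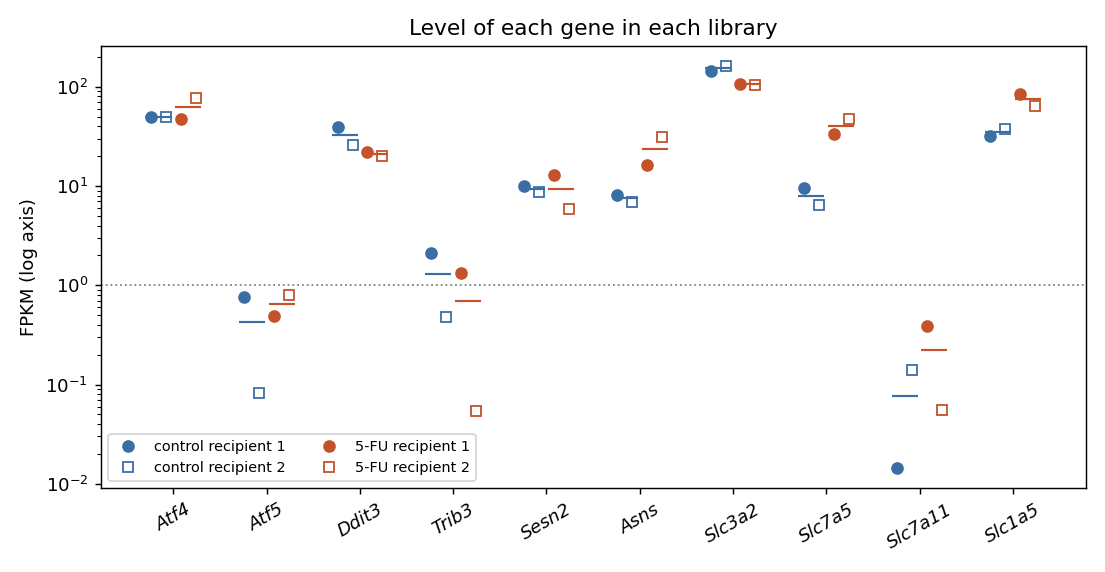
FPKM (log axis) of the 10 genes in each of the 4 libraries, with points for libraries, short lines for group means and a dotted line at 1 FPKM. Slc7a5, Asns and Slc1a5 are above both controls in both 5-FU libraries, Slc3a2 and Ddit3 are below, and Atf5 and Slc7a11 lie under the dotted line throughout.

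Atf4, on chromosome 15 at 80255184 to 80257545 (coordinates of genes are GRCm38.p6), was abundant in every library and did not differ beyond the spread. Control recipients 1 and 2 had 49.2 and 50.1 FPKM, and the 5-FU recipients had 46.9 (recipient 1) and 78.0 (recipient 2). Only 5-FU recipient 2 was high, and recipient 1 was below both controls. On the log2 scale the difference was 0.28 (SE 0.26, 95% interval -0.33 to 0.88, adjusted p = 0.50). The sign rested on single libraries. Without 5-FU recipient 2 the value was -0.08, and without 5-FU recipient 1 it was 0.64. Such fits hold no spread among 5-FU recipients, so no call is read from them.

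Atf5, a related factor with similar translational control that acts in the mitochondrial stress response, lay near the lower limit of detection. Its values were 0.766 and 0.0817 FPKM in controls and 0.488 and 0.805 in 5-FU recipients 1 and 2. Control recipient 2 was low and the other libraries were close together, so the groups overlapped. The gene (chromosome 7, 44812256 to 44816658) shares exon sequence on the opposite strand with Il4i1 and Nup62 in GENCODE M21. The sources used here do not say that strand was used in counting, so reads of these genes cannot be told apart there. Il4i1 had 3.46 and 4.67 FPKM in controls and 0.690 and 0.485 in 5-FU recipients 1 and 2. Its part in the Atf5 values was not tested.

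Ddit3 encodes CHOP, a factor linked to cell death when the stress response persists. It had 39.5 and 26.1 FPKM in controls against 22.2 and 19.98 in 5-FU recipients 1 and 2. Both 5-FU libraries were below both controls, but control recipient 1 stood well above control recipient 2. The log2 fold change of -0.59 (SE 0.25, adjusted p = 0.16) did not pass. It was -0.30 without control recipient 1 and -0.88 without control recipient 2. Within each library Ddit3 was at 0.80 and 0.52 of the Atf4 level in controls and at 0.47 and 0.26 in 5-FU recipients. Ddit3 (chromosome 10, 127290793 to 127296291) overlaps exons of Mars on the opposite strand, and Mars, the methionyl-tRNA synthetase gene, rose from 20.8 and 21.4 to 47.2 and 61.0 FPKM.

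Trib3, a pseudokinase gene induced by ATF4 and CHOP that feeds back on ATF4, was low and differed more within groups than between them. It had 2.12 and 0.476 FPKM in controls and 1.33 and 0.0540 in 5-FU recipients 1 and 2. Replicate 1 was high in each group and replicate 2 low. Low values in these files fall on steps worth 1 read, and the 4 Trib3 values corresponded to 30, 7, 23 and 1 reads if the smallest step is 1 read. Its log2 fold change was -0.45 (SE 0.52, 95% interval -1.66 to 0.75, adjusted p = 0.59). With a pseudocount of 0.1 it was -1.27, and with one of 5 it was -0.14. Its sign turned without control recipient 1 (0.09) and without 5-FU recipient 2 (0.12).

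Sesn2 encodes sestrin 2, a leucine-binding inhibitor of mTORC1 that ATF4 and p53 both induce. It had 9.999 and 8.70 FPKM in controls and 12.8 and 5.82 in 5-FU recipients 1 and 2. The 5-FU libraries lay on either side of the controls, and the group means were 9.35 ± 0.919 and 9.34 ± 4.97 FPKM (SD, n = 2 each). The difference on the log2 scale was -0.09 (SE 0.36, 95% interval -0.93 to 0.75, adjusted p = 0.89), 0.42 without 5-FU recipient 2 and 0.003 without control recipient 1. Its paralog Sesn1 (log2 fold change -1.11, SE 0.20, adjusted p = 0.017) fell from 87.1 and 91.6 FPKM to 37.0 and 44.9. That difference between the paralogs was not tested.

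Asns, which makes asparagine from aspartate and glutamine and is a standard readout of ATF4, rose about 3-fold. It had 8.18 and 6.85 FPKM in controls and 16.4 and 30.9 in 5-FU recipients 1 and 2, or 7.51 ± 0.940 against 23.7 ± 10.3 (SD, n = 2 each). Both 5-FU libraries were above both controls, and recipient 2 stood well above recipient 1. The log2 fold change was 1.47 (SE 0.32, adjusted p = 0.029), and 2.49% of tested genes had a higher one. Relative to Atf4 in the same library, Asns stood at 0.17 and 0.14 in controls and at 0.35 and 0.40 in 5-FU recipients, so the 5-FU libraries were closer to each other as a ratio than in FPKM. The log2 fold change was 1.03 to 1.91 when any 1 library was left out. Whether the call would hold cannot be read from such fits, where a group's single library is assumed to vary like the other group. With all libraries, the call was lost with no filter on low values (adjusted p = 0.12) and without a mean-variance trend (adjusted p = 0.052).

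**Figure D2:**
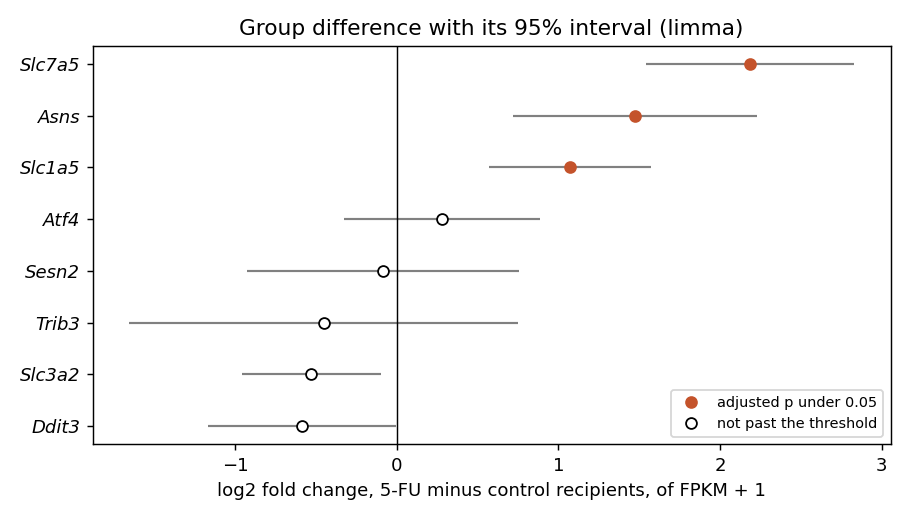
Log2 fold change (5-FU minus control recipients, FPKM + 1) of the 8 tested genes, with limma's 95% interval as a line. Slc7a5 at 2.19, Asns at 1.47 and Slc1a5 at 1.07 are the filled points that passed, and Ddit3 and Slc3a2 lie lowest at -0.59 and -0.53.

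Slc7a5 encodes LAT1, an exchanger that imports leucine and other large neutral amino acids, and it had the largest change of the 10 genes. It had 9.53 and 6.52 FPKM in controls and 33.1 and 47.0 in 5-FU recipients 1 and 2, or 8.02 ± 2.13 against 40.1 ± 9.87 (SD, n = 2 each). The groups were far apart, the lower 5-FU library being above the higher control by more than the spread within either group. The log2 fold change was 2.19 (SE 0.28, adjusted p = 0.0095), and 0.357% of tested genes had a higher one. It was 1.94 to 2.43 when any 1 library was left out. With no filter on low values it did not pass (adjusted p = 0.082). The gene lies on chromosome 8 at 121881146 to 121907686, and no other GENCODE exon overlaps it.

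Slc3a2 encodes CD98, the glycosylated heavy chain that brings LAT1 and related light chains to the cell surface, and its values lay in the opposite direction to those of Slc7a5. It was the most abundant of the 10 genes, with 145.3 and 162.0 FPKM in controls and 107.8 and 104.3 in 5-FU recipients 1 and 2. The libraries of each group were close together and the groups did not overlap. The log2 fold change of -0.53 (SE 0.19, 95% interval -0.96 to -0.10) did not pass (adjusted p = 0.098). Among fits that kept all 4 libraries, it passed after quantile scaling (adjusted p = 0.047) and with a crossed replicate block (adjusted p = 0.049). That block pairs libraries of unlike replicate number and was chosen from a pattern in these same data, so it is no independent support. With the planned replicate block (adjusted p = 0.24) or without a mean-variance trend (adjusted p = 0.17) it did not pass. Leaving out 1 library gave values from -0.61 to -0.45.

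The ratio of Slc7a5 to Slc3a2 within a library, which does not depend on how libraries are scaled by a constant, was 0.066 and 0.040 in controls and 0.31 and 0.45 in 5-FU recipients 1 and 2. It was 7.24-fold higher in 5-FU recipients as a ratio of geometric means, and 5.67-fold to 9.25-fold when any 1 library was left out. With 2 libraries per group an exact two-sided permutation test cannot go below p = 0.333, and none was made. In every library the heavy chain mRNA exceeded that of Slc7a5.

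Other light chains also pair with the heavy chain, and their make-up differed between the groups. The light chains Slc7a5, Slc7a6, Slc7a7, Slc7a8, Slc7a10 and Slc7a11 were summed, a choice made after their values had been seen. Their summed FPKM was 266.1 and 299.5 in controls and 240.2 and 159.7 in 5-FU recipients 1 and 2, or 1.83 and 1.85 times Slc3a2 against 2.23 and 1.53 times. Slc7a8 (LAT2), which also carries neutral amino acids, made up 74.3% and 75.5% of that sum in controls and 56.7% and 51.0% in 5-FU recipients. Slc7a5 made up 3.58% and 2.18% in controls and 13.8% and 29.5% in 5-FU recipients. Slc7a8 fell from 197.8 and 226.0 to 136.3 and 81.4 FPKM (log2 fold change -0.999, SE 0.27, adjusted p = 0.049), a call close to the threshold of 0.05. Slc7a6 (y+LAT2), a cationic and neutral amino acid exchanger, rose from 4.51 and 4.59 to 14.5 and 13.5 FPKM (log2 fold change 1.44, SE 0.25, adjusted p = 0.017). Slc7a7 (y+LAT1) was at 54.2, 62.2 and 56.0 FPKM in controls and 5-FU recipient 1 and at 17.7 in 5-FU recipient 2. The macrophage marker sum was likewise lowest in 5-FU recipient 2. Csf1r, a macrophage receptor gene, had 204.3 and 225.6 FPKM in controls against 116.4 and 67.2, the most negative fold change of the 12 macrophage markers. Of these 12, 3 fell and 9 did not pass (limma). Marco went the other way, with 13.8 and 9.51 FPKM in controls against 27.5 and 14.5. The part of macrophages in the light chain levels was not tested.

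**Figure D3:**
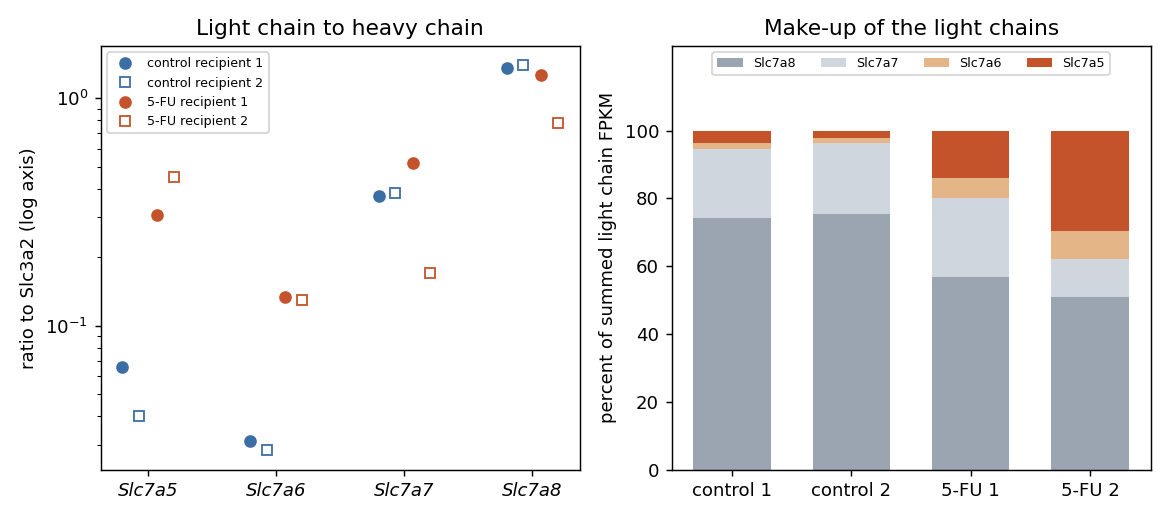
Left, ratio of 4 light chain genes to Slc3a2 in each library (log axis). Right, share of each in the summed FPKM of the light chains. The Slc7a5 and Slc7a6 ratios are higher in both 5-FU libraries than in both controls, and the Slc7a8 share is 74.3% and 75.5% in controls and 56.7% and 51.0% in 5-FU recipients.

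Slc7a11 encodes xCT, the light chain that imports cystine for glutathione synthesis and is induced by ATF4 and NRF2. It was close to undetected in every library, at 0.0144 and 0.139 FPKM in controls and 0.390 and 0.0552 in 5-FU recipients 1 and 2. These values correspond to 1, 10, 33 and 5 reads if the smallest step is 1 read. Only 5-FU recipient 1 stood out, the groups overlapped, and Slc7a11 made up at most 0.162% of the summed light chains.

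Slc1a5 encodes ASCT2, a sodium-coupled exchanger that imports glutamine and other small neutral amino acids, and it is not a partner of Slc3a2. It had 32.1 and 37.5 FPKM in controls and 84.6 and 64.8 in 5-FU recipients 1 and 2, or 34.8 ± 3.83 against 74.7 ± 13.97 (SD, n = 2 each). Both 5-FU libraries were above both controls, and here recipient 1 was the higher. Its log2 fold change was 1.07 (SE 0.22, adjusted p = 0.023), and 6.53% of tested genes had a higher one. The log2 fold change was 0.88 to 1.26 when any 1 library was left out, in fits from which no call is read. With all libraries, the call was lost with no filter on low values (adjusted p = 0.087) and without a mean-variance trend (adjusted p = 0.054).

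Among the 10 genes the order of mean levels in controls ran from Slc3a2 through Atf4, Slc1a5 and Ddit3 to Sesn2, Slc7a5 and Asns, with Trib3, Atf5 and Slc7a11 last. The ranges of Slc1a5 and Ddit3 overlapped in controls, and so did those of Sesn2 with Slc7a5 and Slc7a5 with Asns. Within each control library, however, Sesn2 stood above Slc7a5. In 5-FU recipients the order was Slc3a2, Slc1a5, Atf4, Slc7a5, Asns, Ddit3 and Sesn2, with the same 3 genes last. There the ranges of Slc1a5 overlapped with Atf4, Atf4 with Slc7a5 and Asns with Ddit3. Within each 5-FU library, however, Atf4 stood above Slc7a5 (46.9 against 33.1 FPKM in recipient 1 and 78.0 against 47.0 in recipient 2). Asns stood below Ddit3 in recipient 1 and above it in recipient 2. Differences between genes were not tested. Slc1a5 stood above Atf4 in 5-FU recipient 1 and below it in recipient 2, and Slc7a5 stood above Ddit3 in both. FPKM are per length, so these are comparisons of transcript level.

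Upstream of ATF4, the mRNAs of the eIF2alpha kinases did not pass the test, while the gene for the inducible eIF2alpha phosphatase subunit fell. Of 16 tested genes for the kinases, the phosphatase, eIF2 and its exchange factor eIF2B, 2 rose, 1 fell and 13 did not pass, with a median log2 fold change of 0.43. Both counts are close to the shares over all tested genes (8.23% and 4.67%). Ppp1r15a (GADD34), which directs phosphatase to eIF2alpha and is itself induced in the stress response, had 42.9 and 43.5 FPKM in controls and 12.4 and 12.2 in 5-FU recipients. Its log2 fold change was -1.73 (SE 0.20, adjusted p = 0.0079), and its replicates differed little in either group. Ppp1r15b, the constitutive subunit, was at 0.22 (adjusted p = 0.53). The kinase genes Eif2ak1, Eif2ak3 and Eif2ak4 were at -0.03, 0.20 and -0.01, and the interferon-induced Eif2ak2 at -0.69 (adjusted p = 0.25). Eif2s1, which encodes eIF2alpha, rose from 49.5 and 46.7 to 86.2 and 113.3 FPKM (log2 fold change 1.02), and the eIF2B subunit gene Eif2b1 rose from 26.0 and 26.7 to 43.9 and 48.8.

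Among other ATF4 targets and partners, Phgdh, Psat1, Shmt2 and Mthfd2 of serine and one-carbon synthesis rose, and Atf3, Cebpb and Cebpg did not pass. Psph, the last enzyme of serine synthesis, was at 0.76 (adjusted p = 0.052). Of 34 listed genes 28 were tested, and 8 rose, 1 fell and 19 did not pass, with a median of 0.56 and 20 positive, beside 8.23% rising and 4.67% falling over all tested genes. Mthfd2, a mitochondrial folate enzyme, went from 8.46 and 9.15 to 38.0 and 47.2 FPKM (log2 fold change 2.14, SE 0.22, adjusted p = 0.0059). The serine synthesis genes Phgdh and Psat1 rose by 2.08 each (SE 0.26 and 0.25), and Shmt2, which passes serine carbon to folate, rose by 1.62 (SE 0.24). The other 4 that rose, named after their values were seen, were the tRNA synthetase genes Gars, Wars and Mars and the chromatin-associated stress gene Nupr1, which went from 3.74 and 2.996 to 29.3 and 11.7 FPKM. The gene that fell was Map1lc3b, an autophagy gene that went from 315.5 and 295.7 to 180.2 and 180.1 FPKM (log2 fold change -0.76, adjusted p = 0.042). Of the stress factors, Atf3 was at -1.17 (adjusted p = 0.095), Cebpb at -0.11 and Cebpg at 0.04. Atf3 is also 1 of the 12 handling genes.

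Among the other amino acid transporter genes, the glutamine importer gene Slc38a1 and Slc7a6 rose, and Slc7a8, Slc43a2 and Slc16a10 fell. Of 29 listed genes 18 were tested, and 2 rose, 3 fell and 13 did not pass, with a median of -0.53 and 5 positive. Over all tested genes 8.23% rose, 4.67% fell and 49.2% were positive, so the count that rose is near the background. Slc38a1 went from 4.54 and 4.37 to 9.73 and 12.7 FPKM (log2 fold change 1.15, SE 0.27, adjusted p = 0.035). Those that fell were Slc7a8, Slc43a2 (LAT4, a neutral amino acid carrier) at -1.02 (SE 0.20, adjusted p = 0.022) and Slc16a10, an aromatic amino acid carrier, at -0.99 (SE 0.25, adjusted p = 0.040). The count that fell varied with the setting. It was 2 with a pseudocount of 0.1, quantile scaling, scaling to equal sums or the replicate block. It was 1 without a mean-variance trend and 4 with a pseudocount of 5. The ATF4 target Slc38a2 (SNAT2) had 35.8 and 34.0 FPKM in controls and 37.2 and 61.6 in 5-FU recipients (adjusted p = 0.28). Over the same comparison 3 of 12 macrophage markers fell, none rose and 9 did not pass. Their median was -0.94, with 11 negative and 1, Marco, positive. A link between these markers and the transporter levels was not tested.

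Among sestrins and the amino acid sensing proteins upstream of mTORC1, 30 genes were tested, and 1 rose, 1 fell and 28 did not pass, with a median of 0.01. These counts do not exceed the shares over all tested genes (8.23% and 4.67%). Sesn1 fell, as given above, and Seh1l, a GATOR2 subunit that also belongs to the nuclear pore, rose from 31.1 and 24.7 to 47.8 and 66.4 FPKM (log2 fold change 0.998, SE 0.24, adjusted p = 0.036). Over the 4 lists together 13 of 92 tested genes rose and 6 fell, where 8.23% and 4.67% of all tested genes did. These counts were sensitive to single libraries: without control recipient 1 they were 3 and 0, without control recipient 2 they were 2 and 0, and without 5-FU recipient 1 they were 26 and 22.

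**Figure D4:**
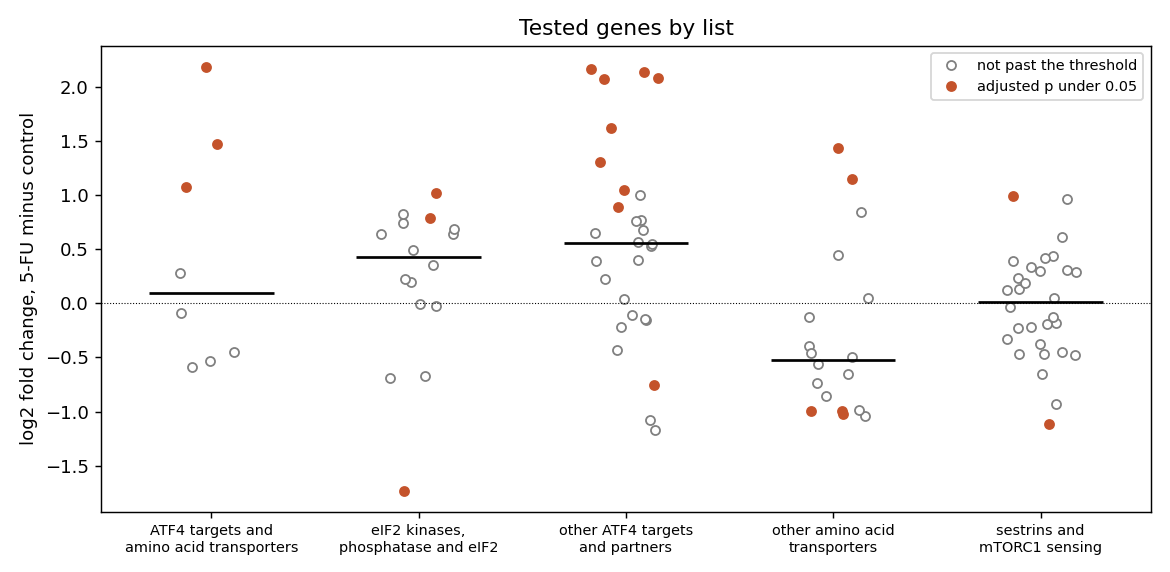
Log2 fold change (5-FU minus control recipients) of every tested gene in the 10-gene set and in the 4 related lists, with filled points past the adjusted p threshold and bars at medians. The medians are 0.10 for the set, 0.43 for the eIF2 genes, 0.56 for other ATF4 targets, -0.53 for other transporters and 0.01 for mTORC1 sensing genes.

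The element's letters occurred in the windows of 10 of 29 other ATF4 targets (34.5%), 1 of 12 eIF2 genes (8.33%), 2 of 24 other transporters (8.33%) and 1 of 24 mTORC1 sensing genes (4.17%). Within the 10-gene set, the 3 genes with a match comprised Asns, which rose, Trib3, which did not pass, and Slc7a11, which was not tested. Atf4, Ddit3, Sesn2 and Slc3a2 had a window without these letters, as did Atf5, and the window covers only the region next to the start.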

How the data were processed

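The 4 libraries were made from total RNA with a SMART-Seq kit for low input, and sequenced single-end at 75 bp, per the labels' protocols. Per the submitters' processing notes the authors used TopHat2 2.0.13, Bowtie2 2.2.3, SAMtools 0.1.19 and Cuffnorm 2.2.1 with mm10, and the deposited values are FPKM. The annotation and Cuffnorm's scaling setting are not given in sources used here. The day number in the 5-FU column headers differs from the file names, and groups follow the labels.

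FPKM summed to 678222 to 762107 per library. Depth is not given. From steps between low values, 1 read weighed 1.31, 1.26 and 1.07 times as much in control recipients 1 and 2 and 5-FU recipient 1 as in 5-FU recipient 2, so the control libraries resolved low values least. The read numbers printed for Trib3 and Slc7a11 were whole within 2%.

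Genes that reached 1 FPKM in 2 or more libraries were compared on log2(FPKM + 1) with limma 3.58.1 (R 4.3.3; lmFit, eBayes with a mean-variance trend). Tests were two-sided, and p-values were adjusted over all tested genes by Benjamini-Hochberg. A fold change on this scale understates the change of low genes. Residual degrees of freedom numbered 2, to which the prior contributed 5.62. The labels call the replicates biological and speak of sorting from each recipient mouse, but do not tie a library to a single mouse. The p-values measure the spread between these libraries. Related genes come from 4 lists, and at most 4 per direction of smallest p are named from each. Other names were picked with their values known. The 10 genes and all lists were chosen with earlier results of these data known. Of the 109 related genes, 3 matched through RefSeq synonyms. The values of 1 marker gene are not reported here. Figures used matplotlib 3.10.9.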

Additional observations from a re-analysis of the deposited data

How the results depend on the processing

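The counts of genes, the median of the 10-gene set and the fold changes of its tested genes were recomputed under 14 alternatives, and under 1 more chosen after seeing the data. Trib3 gave no value with a filter of 5 FPKM. The ratio of Slc7a5 to Slc3a2 was recomputed under 6 of them, and the other ratios, light chain shares, marker sums and fold changes of single related genes under none. Slc7a5, Asns and Slc1a5 kept a positive fold change in all of them, and their calls were lost together only with no filter on low values (adjusted p = 0.082, 0.12 and 0.087), where 3 genes of the whole table were higher and 4 lower, 0 of the 10 genes were higher, and 0 and 0 genes of the 4 related lists passed, against 3680 genes at an unadjusted p under 0.05. Without a mean-variance trend 1 of the 10 genes was higher, 548 genes were higher and 299 lower in all, and 3 of the related genes were lower. Quantile scaling made 1 of the 10 lower, Slc3a2. A filter of 5 FPKM moved the median of the 10-gene set to 0.28.

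Leaving out 1 library gave 88 to 2122 genes higher and 38 to 1876 lower, 1 to 4 of the 10 genes higher and 0 to 1 lower, 2 to 26 related genes higher and 0 to 22 lower, and a set median of 0.044 to 0.27. The fold change ranged from -0.082 to 0.64 for Atf4, from -1.03 to 0.12 for Trib3 and from -0.60 to 0.42 for Sesn2 (reversed at 0.09 for Trib3 and 0.003 for Sesn2 without control replicate 1). Each such fit took its spread from the group left with 2 libraries, so the counts passing do not measure both groups. By list, without a single library the counts higher ran from 0 to 7 (eIF2), 2 to 13 (ATF4 targets), 0 to 4 (transporters) and 0 to 2 (mTORC1 sensing), and those lower from 0 to 3, 0 to 4, 0 to 9 and 0 to 6.

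The labels name nothing that equal replicate numbers share. With the replicate number as a block 855 genes were higher and 539 lower, with 3 and 0 of the 10 genes, and 1 in place of 2 eIF2 genes was higher. Deviations of same-numbered libraries correlated at r = -0.16 across genes, and the crossed replicate block gave 1686 and 1365 genes, 3 and 1 of the 10, and 22 and 14 related genes. The cause of these shifts was not tested. Trib3 and Slc7a11 rest on few reads, 1 in at least 1 library if the smallest step is 1 read.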
